A study of Sus scrofa with 12 samples.

Results

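The genes described here are 8 markers of the enteric nervous system: VIP, RET, TUBB3, UCHL1, ELAVL4, S100B, SOX10 and GFAP. They were chosen by name as genes of enteric neurons and glia, and a probe set counted as a member when the array annotation gave it one of these symbols. Of the 8 genes, 6 had a probe set, with 14 probe sets in all, out of 13664 gene symbols and 47845 probe sets on the array. VIP and TUBB3 had none under their symbols in the annotation used and were not analysed here. Where a gene had several probe sets, the one with the highest mean stood for it.

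The study set pigs of high feed efficiency (FE, the weight gained for the feed eaten) beside pigs of low FE, and asked how the mucosa of their duodenum differs. The high FE group held 3 males and 3 females and the low FE group likewise, all 140 days old. No strain, diet or treatment is given in the labels. Each of the 12 pigs was measured on 1 Affymetrix Snowball array, a chip of short DNA probes for pig transcripts, from total RNA of duodenal mucosa. The pig identifiers formed 2 runs, and the second run held 4 females.

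The gut wall holds its own nervous system, whose ganglia lie between the muscle layers and in the submucosa and send fibres into the mucosa. Its neurons and glia arise from neural crest cells that depend on the receptor RET and the transcription factor SOX10. Cell bodies of neurons therefore lie mostly outside the mucosa, while glia and nerve fibres run through it up to the epithelium. Among the listed genes, VIP encodes a peptide transmitter that relaxes muscle and drives secretion, TUBB3 a tubulin of neurons, UCHL1 a ubiquitin hydrolase abundant in neurons, and ELAVL4 an RNA-binding protein of neurons. S100B, SOX10 and GFAP mark glia: a calcium-binding protein, a transcription factor and an intermediate filament.

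All values are log2 values as deposited, and each SD is over pigs and each SE belongs to a difference in the limma model. The array carries 69 background probe sets of random (antigenomic) sequence without a target in the pig, sorted into 23 classes by the number of G or C bases among the 25 bases of a probe, with 3 sets a class. Their median lay between 2.16 and 2.46 on the high FE arrays and between 2.25 and 2.53 on the low FE arrays. Their 95th percentile lay between 7.27 and 7.70 on the high FE arrays and between 7.30 and 7.71 on the low FE arrays. The medians over all probe sets lay between 3.83 and 3.91 on every array.

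None of the 6 measured genes lay above the 95th percentile of background on any of the 12 arrays. Over all gene symbols, 10.6% lay above that limit on at least 10 arrays. Of the 6 genes, 5 lay above the median of background on at least 10 arrays, beside 87.2% of all symbols, and the exception was ELAVL4, which stayed below it on every array. In order of their means over 12 pigs, SOX10 had 5.51 ± 0.89 (SD), S100B 5.22 ± 0.39, RET 4.88 ± 0.20, GFAP 4.75 ± 0.24, UCHL1 4.51 ± 0.61 and ELAVL4 1.95 ± 0.20. These are signals of different probes, so this order does not rank transcripts.

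**Figure D1:**
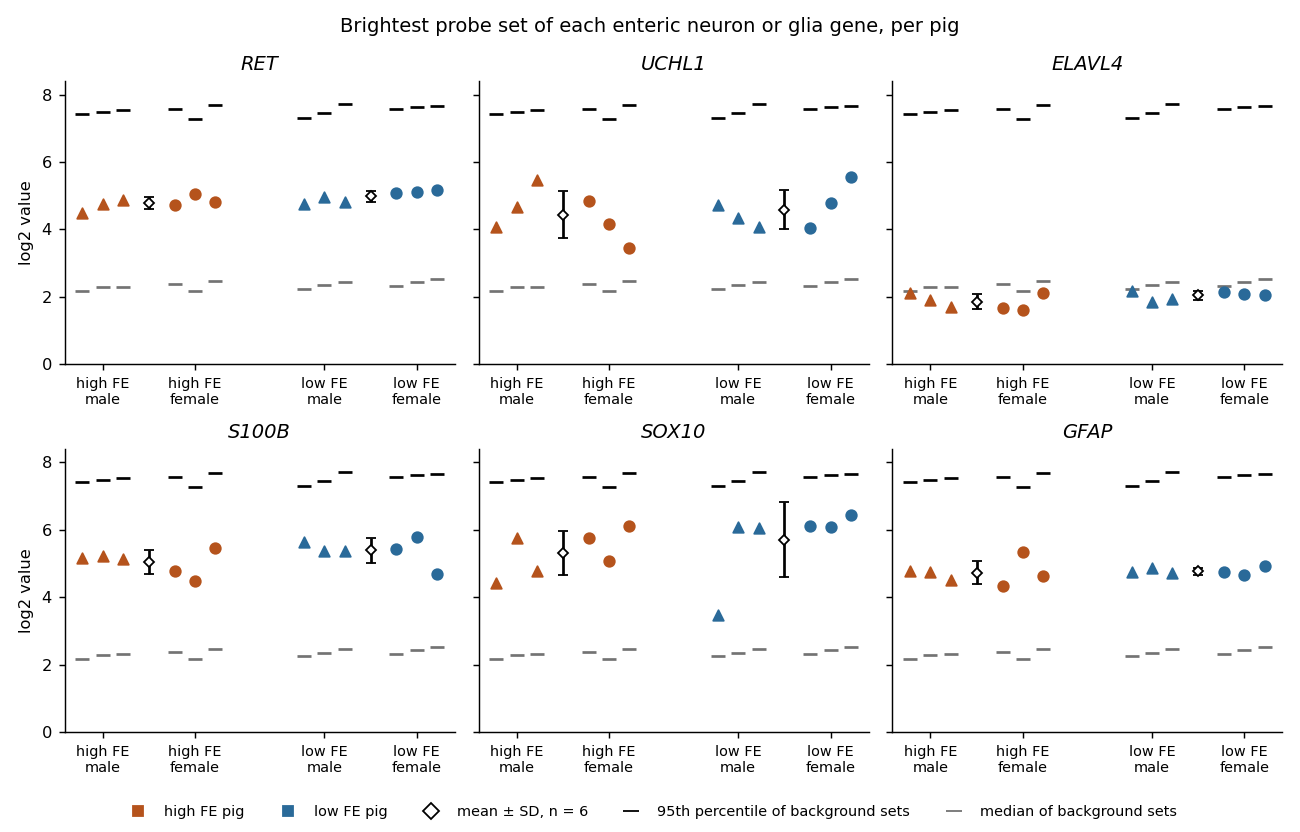
Log2 value of the brightest probe set of each measured gene in every pig (y axis), by FE group and sex (x axis), with diamonds for the mean ± SD of each FE group (n = 6) and dashes for the 95th percentile (black) and median (grey) of background on the same array. Every gene lies below the 95th percentile on all 12 arrays, and ELAVL4 lies below the median as well.

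The background itself depended on the bases of the probes. The mean of a class was 1.22 at 3 G or C bases, 4.07 at 16, 4.78 at 17, 5.61 at 18 and 7.53 at 23, and the 3 sets of a class differed from each other by at most 0.26. RET, S100B and SOX10 had means between those of the classes with 17 and 18 G or C bases. UCHL1 and GFAP had means between those of 16 and 17, and ELAVL4 between those of 13 and 14, at 1.77 and 2.34. The base content of the gene probes was not used here, so whether these 6 values exceed what their own probes would give without a transcript was not tested.

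**Figure D2:**
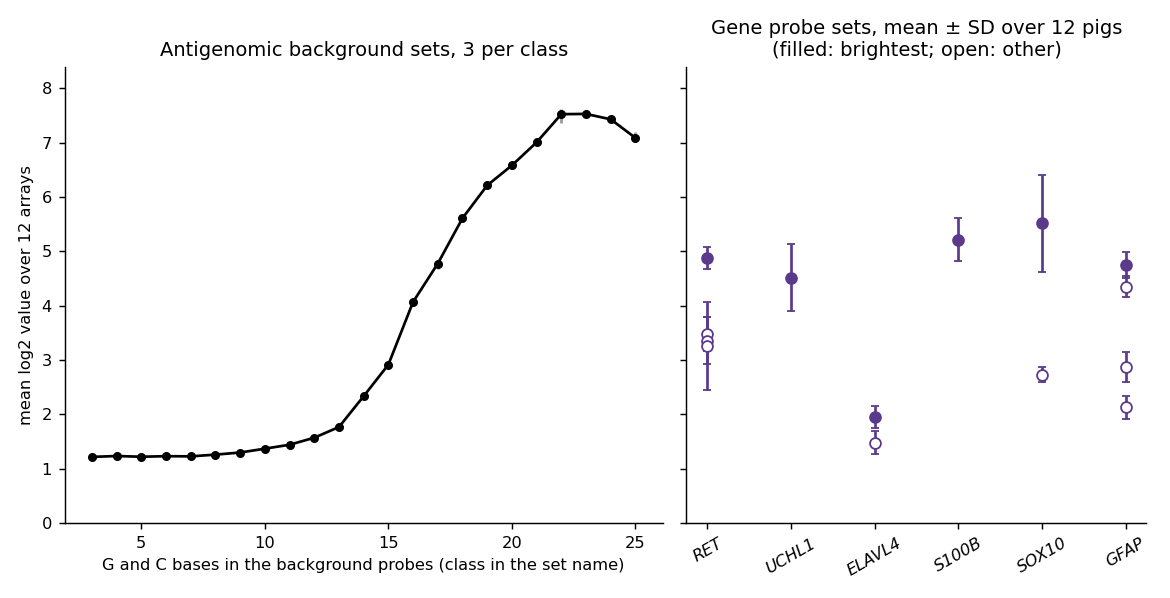
Mean log2 value over 12 pigs of the background probe sets (left, y axis) against the number of G or C bases among 25 (x axis), and on the same y axis (right) the mean ± SD of the brightest (filled) and the other (open) probe sets of the 6 genes. The background runs from 1.22 at 3 bases to 7.53 at 23 bases and so spans the level of each of the 6 genes.

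Between high and low FE, none of the 33405 probe sets tested passed an adjusted p of 0.05 in limma, which is 0% of them. With an unadjusted p under 0.05 stood 2000 probe sets, and the smallest adjusted p was 0.307. Of the 6 measured genes, 5 passed the filter on low values and were tested, and ELAVL4 was taken from the fit with no filter. All 6 had a mean lower in high FE than in low FE, with differences between -0.05 and -0.39, and none passed. Over all probe sets tested, 18053 (54.0%) had a lower mean in high FE, and the median difference was -0.02. In bulk tissue, fewer cells of a type and less RNA per cell cannot be told apart.

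RET, the receptor through which glial cell line-derived neurotrophic factor acts on enteric neurons and their progenitors, is the first of the neuron genes. Its lowest, median and highest values were 4.49, 4.77 and 5.06 in high FE pigs, against 4.75, 5.03 and 5.15 in low FE pigs. The groups overlapped, and 5 of the 6 high FE pigs lay below the low FE median. The difference was -0.20 ± 0.11 (SE), with a 95% interval from -0.43 to 0.03 and an adjusted p of 0.753 in limma. An exact permutation test, two-sided and stratified by sex with 400 assignments, gave an unadjusted p of 0.045, which is not adjusted for the 6 genes or any other test.

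Within the sexes, RET had 4.49, 4.74 and 4.88 in high FE males, against 4.75, 4.97 and 4.82 in low FE males. In females it had 4.73, 5.06 and 4.81 in high FE, against 5.09, 5.12 and 5.15 in low FE. The females did not overlap, as was the case for 8.57% of probe sets tested. The difference was -0.14 ± 0.16 (SE) in males and -0.25 ± 0.16 (SE) in females, with adjusted p-values of 0.867 and 1.00 in limma.

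RET also had the lower mean in males, with 4.77 ± 0.16 in males, against 4.99 ± 0.18 in females (SD, n = 6 each). The groups overlapped, between 4.49 and 4.97 in males and between 4.73 and 5.15 in females. This difference of -0.22 ± 0.11 (SE) had an adjusted p of 0.975 in limma, and an unadjusted p of 0.030 in the exact permutation test. A term for the identifier run brought the sex difference of RET to -0.14. Leaving out the 3 arrays lowest in background brought it to -0.11, while a term for array background left it at -0.22. The exact test took no account of the identifier run, and the second run held females only. For sex, 7 probe sets (0.021%) passed the threshold, and none of them belonged to the 6 genes.

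The other 3 probe sets of RET were dimmer than the first. The dimmest of them spread widely, with 3.01 ± 0.85 in high FE pigs, against 3.51 ± 0.75 in low FE pigs (SD, n = 6 each). Its difference was -0.50 ± 0.39 (SE), while another probe set of RET had the opposite sign, at 0.34 ± 0.22 (SE), and the third was at -0.03 ± 0.18 (SE). Correlations between the 4 probe sets over 12 pigs lay between -0.46 and 0.48, so the probe sets did not rank the pigs alike.

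UCHL1, known as a general marker of nerve cell bodies and fibres, varied more between pigs than RET. Males of high FE had 4.06, 4.66 and 5.45, against 4.71, 4.33 and 4.07 in males of low FE. Females of high FE had 4.86, 4.16 and 3.46, against 4.05, 4.79 and 5.56 in females of low FE. The highest male was thus a high FE pig and the highest female a low FE pig, and the groups overlapped in both sexes.

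The FE difference of UCHL1 was 0.36 ± 0.46 (SE) in males and -0.65 ± 0.46 (SE) in females. The interaction, the difference in males minus that in females, was 1.00 ± 0.65 (SE), with a 95% interval from -0.42 to 2.43 and an adjusted p of 0.998 in limma. Leaving out 1 pig at a time put it between 0.62, without low FE replicate 6, and 1.38, without low FE replicate 4, and without the 3 arrays lowest in background it was 1.51. Of all probe sets tested, 0.00299%, a single one, passed for the interaction. Over both sexes the FE difference was -0.14 ± 0.34 (SE), with an adjusted p of 0.925.

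ELAVL4, an RNA-binding protein of the HU family found in differentiated neurons, had the lowest signal of the 6. Its lowest, median and highest values were 1.61, 1.81 and 2.13 in high FE pigs, against 1.85, 2.08 and 2.18 in low FE pigs. The groups overlapped, and on every array ELAVL4 lay below the background median of that array. The FE difference with no filter was -0.18 ± 0.12 (SE, adjusted p 0.810 in limma). The second probe set of ELAVL4 lay at 1.54 ± 0.22 in high FE pigs, against 1.42 ± 0.19 in low FE pigs (SD, n = 6 each), with a difference of 0.12 ± 0.13 (SE), and correlated with the first at -0.27 over 12 pigs.

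S100B, the calcium-binding protein used most often to stain enteric glia, had a single probe set. Males of high FE had 5.15, 5.23 and 5.13, against 5.64, 5.37 and 5.39 in males of low FE. The males did not overlap, as was the case for 10.5% of probe sets tested. Females of high FE had 4.78, 4.48 and 5.47, against 5.44, 5.79 and 4.70 in females of low FE, and these overlapped.

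Over both sexes S100B averaged 5.04 ± 0.35 in high FE pigs, against 5.39 ± 0.37 in low FE pigs (SD, n = 6 each). The difference was -0.35 ± 0.20 (SE), with a 95% interval from -0.78 to 0.08 and an adjusted p of 0.753 in limma. The male minus female difference was 0.21 ± 0.20 (SE, adjusted p 0.978), and leaving out 1 pig at a time put it between 0.08 without low FE replicate 6 and 0.33 without high FE replicate 6.

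SOX10, the transcription factor that keeps enteric progenitors and glia in their fate, had the widest spread of the 6 genes. Males of high FE had 4.44, 5.75 and 4.79, against 3.47, 6.09 and 6.04 in males of low FE. Females of high FE had 5.75, 5.07 and 6.11, against 6.12, 6.09 and 6.45 in females of low FE. In low FE, 5 pigs lay between 6.04 and 6.45 and 1 male at 3.47, the lowest value of all 12 pigs. The high FE pigs were spread between 4.44 and 6.11.

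The FE difference of SOX10 was -0.39 ± 0.42 (SE), with a 95% interval from -1.30 to 0.52 and an adjusted p of 0.813 in limma. Without the low FE male at 3.47 (low FE replicate 1) it was -0.80, with an adjusted p of 0.644 in limma. It was -0.21 without low FE replicate 2, -0.23 without low FE replicate 3 and -0.24 without high FE replicate 5, and leaving out any other single pig moved it by less than 1.5 times. Males averaged 5.10 ± 1.05 and females 5.93 ± 0.48 (SD, n = 6 each). This male minus female difference of -0.83 ± 0.42 (SE) had an adjusted p of 0.975 in limma and an unadjusted p of 0.065 in the exact permutation test, and it was -0.43 without the same male, -0.44 with the array background as a term and -0.38 without the 3 arrays lowest in background.

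The second probe set of SOX10 showed none of this spread, with 2.74 ± 0.16 in high FE pigs, against 2.73 ± 0.13 in low FE pigs (SD, n = 6 each). Its FE difference was 0.01 ± 0.11 (SE), and it correlated with the first at 0.32 over 12 pigs.

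GFAP, the filament protein of astrocytes that some enteric glia also make, had the smallest FE difference among the genes' brightest probe sets. Its lowest, median and highest values were 4.33, 4.69 and 5.34 in high FE pigs, against 4.65, 4.75 and 4.94 in low FE pigs. The low FE pigs lay inside the range of the high FE pigs. The FE difference was -0.05 ± 0.16 (SE), with a 95% interval from -0.39 to 0.29 and an adjusted p of 0.948 in limma, and the male minus female difference was -0.05 ± 0.16 (SE, adjusted p 0.991). A term for array background moved the FE difference to -0.16, and dropping the 3 arrays lowest in background moved it to -0.23. Leaving out 1 pig at a time put the FE difference between -0.18 and 0.04. The dimmer probe sets of GFAP differed by -0.13, -0.12 and 0.06 between high and low FE in the fit with no filter. The 4 probe sets of GFAP correlated with each other between -0.36 and 0.12 over 12 pigs.

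**Figure D3:**
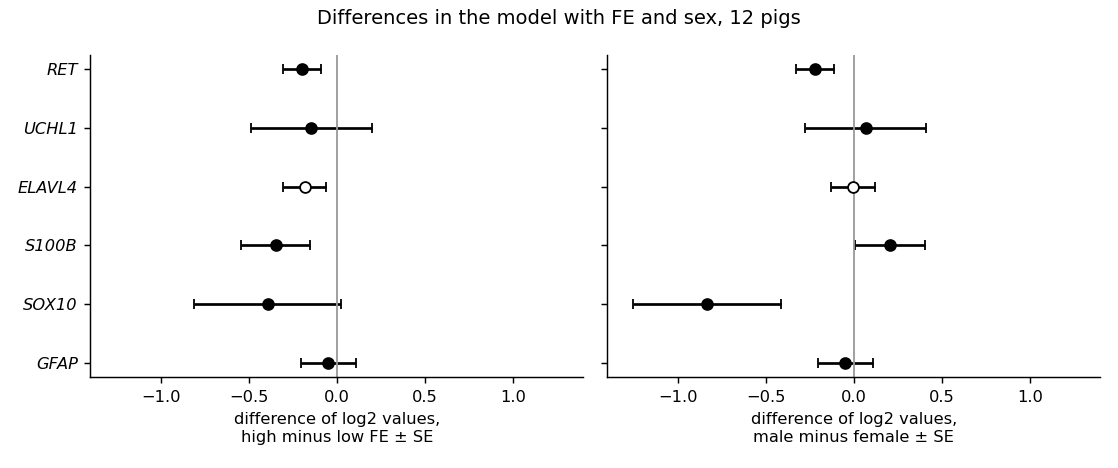
Difference in log2 value with its SE for the brightest probe set of each gene (rows), for high minus low FE on the left and male minus female on the right; the open circle of ELAVL4 comes from the fit with no filter. All 6 differences between high and low FE lie below 0, from -0.05 to -0.39, and SOX10 is farthest from 0 in both panels, at -0.39 and -0.83.

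Counted over all 14 probe sets of these genes, 4 had a higher and 10 a lower mean in high FE, and 0 of them had an unadjusted p under 0.05 in the limma fit with no filter. For sex, 6 were higher and 8 lower in males, again with 0 under that limit. For FE by sex, the interactions of the other genes beside UCHL1 lay between -0.10 and 0.37. Within males 0% of probe sets tested passed, and within females 0% passed.

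The genes differed in their spread over pigs. SOX10 had an SD of 0.89 over 12 pigs, and 99 of the 100 other probe sets nearest to it in mean level had a lower SD. For UCHL1, with an SD of 0.61, the count was 86 of 100, and for S100B, with 0.39, it was 79 of 100. RET, with 0.20, GFAP, with 0.24, and ELAVL4, with 0.20, stood at 16, 31 and 21 of 100. The 10 background probe sets nearest in level had median SDs between 0.085 and 0.164, below the SD of each of the 6 genes. The 100 other probe sets nearest in level had median SDs between 0.278 and 0.320, also above those of background. An SD above that of background thus does not set the 6 genes apart from other probe sets.

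No pair of the 6 genes passed a test of correlation over pigs. The 15 pairwise correlations lay between -0.39 and 0.66, and 0 of them passed after Benjamini-Hochberg adjustment over the 15 pairs. The highest was between ELAVL4 and S100B, with Pearson r = 0.66 (permutation p 0.0209, adjusted 0.314) and Spearman rho = 0.73 over 12 pigs. It was 0.32 without the 2 pigs farthest from the ELAVL4 median, 0.60 with the means of the 4 groups removed and 0.73 among the 8 pigs of the first identifier run. RET and SOX10 followed with r = 0.53 and rho = 0.65 (permutation p 0.0787, adjusted 0.591 for r), and r was 0.30 without 2 pigs. The glia genes S100B and GFAP had r = -0.39, and S100B and SOX10 had r = -0.05.

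The highest correlation of SOX10 with any score was that with the background of the array. Pearson r between SOX10 and the array median of background was 0.72 (permutation p 0.0068) and Spearman rho 0.77 over 12 pigs. These had adjusted p-values of 0.287 and 0.214 over 42 relations of the genes with marker scores and background, and 0 of the 42 passed. The value of r was 0.72 without the 2 pigs farthest from the SOX10 median, 0.65 with the means of the 4 groups removed and 0.67 among the 8 pigs of the first identifier run. The second run holds 4 pigs, too few for a value. With the array background as a term in the limma model, the FE difference of SOX10 was 0.04 in place of -0.39. Without the 3 arrays lowest in background, the FE difference of SOX10 was -0.52. The part of the background in the SOX10 differences was not tested beyond these fits.

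**Figure D4:**
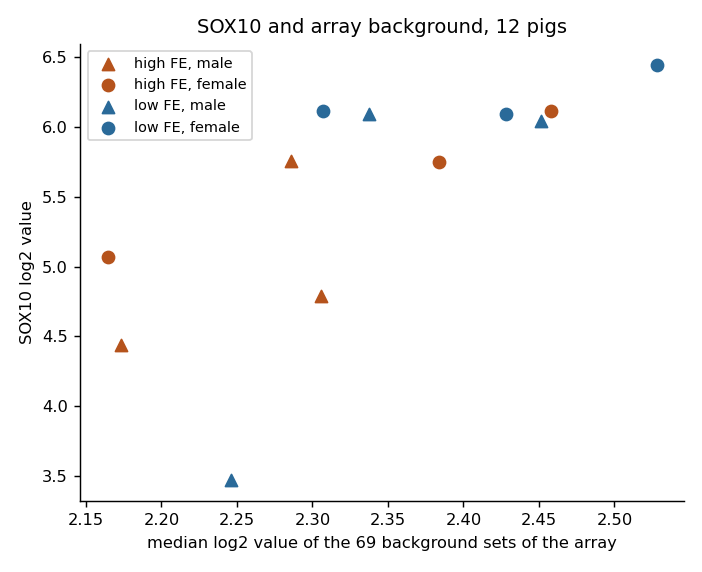
Log2 value of SOX10 (y axis) against the median of the 69 background probe sets of the same array (x axis), 1 point per pig, by FE group and sex. Pearson r is 0.72 over the 12 pigs, and the low FE male at 3.47 sits on an array with a background median of 2.25.

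Signals of other cells were compared with the 6 genes in the same way. The smooth muscle score, the mean log2 value of 17 muscle genes, correlated with SOX10 at r = 0.62 (rho = 0.53, permutation p 0.0296, adjusted 0.538) and at 0.47 without 2 pigs. RET had r = 0.51 (rho = 0.61) with the same score (adjusted p 0.649 for r). That score lay between 7.45 and 7.92 on the high FE arrays and between 7.35 and 8.25 on the low FE arrays. GFAP correlated with the score of T and NK cells at r = -0.59 (rho = -0.53, permutation p 0.0391, adjusted 0.538), and at -0.39 without 2 pigs. None of these relations passed.

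Beside the 6 genes, 75 further genes of enteric neurons and glia were listed, of which 58 had a probe set. Above the 95th percentile of background on at least 10 arrays were 0 of the 58, beside 10.6% of all symbols. Above the background median on at least 10 arrays were 52 of the 58, beside 87.2% of all symbols. Some arrays passed the 95th percentile for 5 of them: ERBB3, the neuregulin receptor of glia and of epithelium, on 8 arrays, GAP43, a growth-cone protein, on 4, and VIPR1, MBP and PMP22 on 1 each. Of 53 tested, 18 were higher and 35 lower in high FE, beside 54.0% lower over all probe sets tested. In limma 0 of the 53 passed, and 6 had an unadjusted p under 0.05, beside 2000 of all 33405 probe sets tested. The median difference was -0.05. For sex, 21 were higher and 32 lower in males, beside 49.4% lower over all probe sets tested. Of the 53, 0 passed for sex, and the median difference was -0.03.

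The transmitter and neuropeptide list had 11 genes tested, 4 higher and 7 lower in high FE, and the median of their differences was -0.05. CARTPT, the precursor of a neuropeptide, averaged 3.79 ± 0.21 in high FE pigs, against 4.13 ± 0.24 in low FE pigs (SD, n = 6 each). NMU, the precursor of neuromedin U, through which enteric neurons signal to lymphoid cells, averaged 3.70 ± 0.38 in high FE pigs, against 3.37 ± 0.13 in low FE pigs (SD, n = 6 each). PENK, the precursor of the enkephalins, had the highest mean of the list, 6.71, with 6.61 ± 0.37 in high FE pigs, against 6.82 ± 0.52 in low FE pigs. GRP, gastrin-releasing peptide, averaged 5.50 ± 0.48 in high FE pigs, against 5.83 ± 0.34 in low FE pigs. The makers of the classic transmitters were dim, with means of 4.01 for CHAT, which makes acetylcholine, and 4.50 for NOS1, which makes nitric oxide.

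Genes of neuronal structure and excitability numbered 22 tested, 9 higher and 13 lower in high FE, and the median of their differences was -0.02. NEFH, the heavy neurofilament, averaged 4.27 ± 0.21 in high FE pigs, against 4.68 ± 0.28 in low FE pigs (SD, n = 6 each), a difference of -0.42 ± 0.13 (SE, adjusted p 0.753 in limma). ELAVL2, a relative of ELAVL4, had the opposite sign, with 3.07 ± 0.40 in high FE pigs, against 2.52 ± 0.19 in low FE pigs, a difference of 0.55 ± 0.18 (SE, adjusted p 0.753). Its mean of 2.80 lay near background, and it was above the background median on 10 of the 12 arrays. GAP43 had 7.43 ± 0.15 in high FE pigs, against 7.54 ± 0.29 in low FE pigs, and THY1, a surface protein of neurons and also of fibroblasts, had 6.76 ± 0.27 in high FE pigs, against 7.05 ± 0.35 in low FE pigs. SNAP25, which fuses synaptic vesicles, lay above the background median on 3 arrays, and the sodium channel SCN10A on 0.

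The pathway of RET was represented by its ligand GDNF and 3 co-receptors. GDNF had a mean of 3.56, with 3.56 in high FE pigs, against 3.57 in low FE pigs. GFRA4 averaged 5.32 ± 0.22 in high FE pigs, against 5.61 ± 0.21 in low FE pigs (SD, n = 6 each), a difference of -0.29 ± 0.12 (SE, adjusted p 0.753 in limma). GFRA1, the co-receptor for GDNF, differed by -0.12 ± 0.14 (SE), and GFRA2, the co-receptor for neurturin, by 0.14 ± 0.12 (SE). The brightest probe set of RET, GFRA1 and GFRA4 were thus lower and GFRA2 higher in mean in high FE, and none passed. Another probe set of RET had the opposite sign, at 0.34 ± 0.22 (SE).

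The receptors that VIP acts on were measured. VIPR1, the form found on epithelium and lymphocytes, had 6.97 ± 0.16 in high FE pigs, against 6.85 ± 0.29 in low FE pigs (SD, n = 6 each), a difference of 0.11 ± 0.15 (SE). ADCYAP1R1, the receptor for the related peptide PACAP, differed by -0.10 ± 0.24 (SE) for FE and by 0.59 ± 0.24 (SE, adjusted p 0.975 in limma) between males and females. VIPR2 had a mean of 4.17.

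Factors of enteric progenitors had 6 genes tested, 2 higher and 4 lower in high FE, and the median of their differences was -0.12. EDNRB, the endothelin receptor needed for progenitors to colonise the gut, differed by 0.32 ± 0.20 (SE), TBX3 by 0.29 ± 0.23 (SE) and HAND2, a transcription factor of enteric neurons, by -0.22 ± 0.13 (SE).

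The list of glia and Schwann cells, beside S100B, SOX10 and GFAP, had 7 genes tested, 1 higher and 6 lower in high FE, and the median of their differences was -0.24. This median was -0.09 without high FE replicate 4, -0.14 with no filter and -0.14 with the probe sets of each gene averaged. PMP22, a myelin protein that other cells also make, averaged 6.87 ± 0.30 in high FE pigs, against 7.39 ± 0.45 in low FE pigs (SD, n = 6 each), a difference of -0.52 ± 0.22 (SE). NGFR, the low-affinity neurotrophin receptor, differed by -0.25 ± 0.11 (SE), ERBB3 by -0.31 ± 0.25 (SE) and MBP, myelin basic protein, by -0.03 ± 0.15 (SE). None of these 4 passed, with adjusted p-values between 0.753 and 0.969 in limma.

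Lists of other cells had median FE differences between -0.58 and 0.26. Smooth muscle had 3 higher and 14 lower genes in high FE with a median of -0.27, fibroblasts 1 higher and 10 lower with -0.20, and goblet and Brunner gland cells 0 higher and 8 lower with -0.44. Pancreatic acinar genes had 7 lower of 7, with a median of -0.58, but 1 low FE female, replicate 6, stood apart with a mean over the 8 measured genes of 6.70, against at most 3.98 in the other pigs. Without it the median was -0.15, with 1 higher and 5 lower. Adipocyte genes had 8 lower of 8, with -0.20, and 4 lower and 4 higher with -0.02 without low FE replicate 3. Enterocyte genes ran the other way, with 7 higher and 2 lower and a median of 0.26, and T and NK cells had 9 higher and 2 lower with 0.08. Leaving out 1 pig put the enterocyte median between 0.06 (without low FE replicate 3) and 0.44 (without low FE replicate 1), and that of T and NK cells between -0.05 (without high FE replicate 6) and 0.17 (without low FE replicate 1). The smooth muscle median was -0.46 without low FE replicate 1, and leaving out 1 pig kept the goblet and Brunner gland median between -0.53 and -0.29. None of the genes on these 7 lists passed, and the part of such cells in the neuron and glia values was not tested.

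Levels relative to background differed among the lists of other cells. Above the 95th percentile of background on at least 10 arrays were 9 of 17 smooth muscle genes, 8 of 11 fibroblast genes, 6 of 9 enterocyte genes and 7 of 8 goblet and Brunner gland genes, as well as 5 of 11 T and NK cell genes and 3 of 15 enteroendocrine genes. ACTG2, the actin of enteric smooth muscle, averaged 11.2 ± 0.26 in high FE pigs, against 11.7 ± 0.40 in low FE pigs (SD, n = 6 each). CCK, a hormone of endocrine cells, averaged 10.6 ± 0.55 in high FE pigs, against 10.9 ± 0.15 in low FE pigs. The same count was 0 for endothelium, interstitial cells of Cajal, adipocytes, innate lymphoid and dendritic cells and pancreatic acinar cells. Among the enterocyte genes of the labelled tissue, means ran from 11.5 for ANPEP, a peptidase, to 3.84 for MEP1A. MEP1A lay above the 95th percentile of background on 0 arrays. Of the neuron and glia genes, 0 lay above that percentile on at least 10 arrays, and ERBB3 lay above it on 8.

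**Figure D5:**
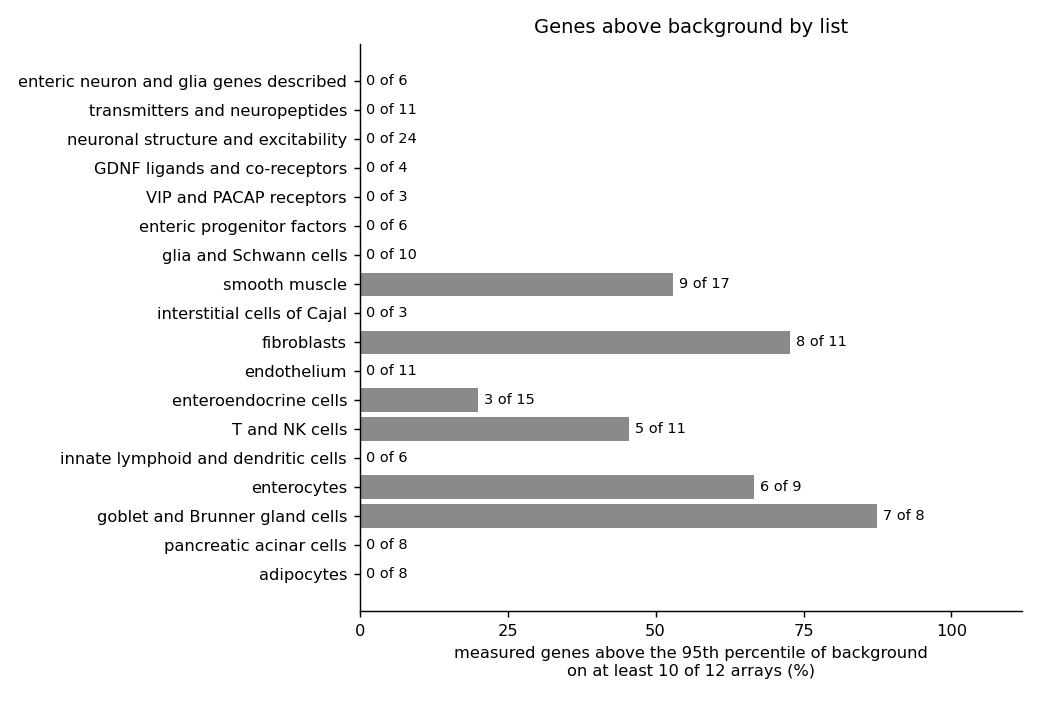
Share of measured genes above the 95th percentile of background on at least 10 of 12 arrays (x axis, percent) for each gene list (rows). The 6 measured genes and the other neuron and glia lists stand at 0. Endothelium, interstitial cells of Cajal, adipocytes, innate lymphoid and dendritic cells and pancreatic acinar cells stand at 0 as well. Smooth muscle stands at 9 of 17 genes and goblet and Brunner gland cells at 7 of 8.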

How the data were processed

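Total RNA of 12 duodenal mucosa samples was hybridised to 1 array each. The deposited values are on a log2 scale, from 0.21 to 14.21, which was read from the values. GCOS 1.1.1 is named per the submitters' processing notes, and how background, normalization and summarization were handled was not given in the sources used here. Values were used as deposited. Symbols came from the platform annotation, which can be old: 26426 probe sets had 1 symbol, 0 several and 21296 other than controls none, and 264 of 13755 symbols were updated through the Sscrofa11.1 gene table. Coordinates were not used, since no build is named for the array.

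The 123 control probe sets were left out. Probe sets with a mean above the 30th percentile (33405) were fitted in limma 3.58.1 (R 4.3.3) by lmFit and eBayes, with FE and sex in the model, Benjamini-Hochberg adjustment over all of them and a threshold of 0.05. A second model with 4 means, 1 for each FE group in each sex, served for the interaction and for FE within a sex. Differences are high minus low FE and male minus female. Single genes were also tested by two-sided exact permutation within the other factor, and correlations by 100000 permutations. The fits were tested on simulated data. The number of arrays limits the precision.

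Each pig was a replicate. From each neuron or glia list the text names the 2 genes with the lowest unadjusted p for FE and the 2 with the highest mean. From other lists it names genes with the highest mean. CHAT, NOS1, SNAP25, SCN10A, GDNF, VIPR2 and MEP1A were named after their values were seen. Genes and lists were chosen with earlier results of these data known. Alternatives changed the filter, normalization, variance model, weights, probe sets per gene, model terms and set of pigs. A fit without 3 arrays, medians of other cell lists without each pig, the spread beside other probe sets and a wider rule for similar genes were chosen after seeing the data.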

Additional observations from a re-analysis of the deposited data

Results flagged for a closer look

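In low FE, SOX10 of replicate 1, a male, was 3.47, while the other 5 low FE pigs lay between 6.04 and 6.45. Its distance to the nearest pig was 0.864 of the range of the group, above Dixon's 95% critical value of 0.625 for 6 samples. Over 14 groups of values examined, 1 was marked in this way, and chance marks about 1 in 20.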

How the results depend on the processing

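Of 597 differences of the 6 genes under the alternatives, 33 changed sign, and the lowest adjusted p was 0.524 in limma. Many of the 597 could not change sign, so the count of 33 is no measure of stability. The filters, the variance models and the exact tests left each difference as it was. Leaving out a pig of 1 sex cannot move the FE difference within the other sex. For FE and sex, ELAVL4 had no limma fit beside the one with no filter. The 2 values past a threshold were the unadjusted exact tests of RET. Leaving out 1 pig in turn gave 0 to 1 probe sets for FE (1 without low FE replicate 4), 6 to 8 for sex and 0 to 1 for the interaction, where 1 stood with all pigs. The interaction count was 0 with the 50th percentile filter, the ordinary linear model, array weights, the identifier run or array background as a term, and without the 3 arrays lowest in background. The sex count was 3 with the run as a term. Set against the background median, 5 genes counted as above background in place of 0. With array background as a term, SOX10 differed by 0.0434 for FE and by 0.24 in males. Without the 3 arrays lowest in background (high FE replicates 1 and 5, low FE replicate 1), UCHL1 differed by 0.0379 for FE and GFAP by 0.0652 for sex, and the interactions were -0.0185 for S100B, -0.51 for SOX10 and 0.12 for GFAP. Array weights gave -0.0446 for UCHL1 and 0.0167 for GFAP for sex. GFAP had 0.0036 for sex and 0.0727 for the interaction with the mean of its probe sets, 0.19 for sex with the run as a term, and in females 0.0160 with quantile normalization and 0.0227 with centred arrays. Leaving out 1 pig, FE differences lay between -0.36 and 0.0804 for UCHL1 and -0.18 and 0.0436 for GFAP. Sex differences lay between -0.15 and 0.29 for UCHL1 and -0.14 and 0.0839 for GFAP. Interactions lay between -0.14 and 0.41 for S100B, -0.50 and 0.81 for SOX10 and -0.31 and 0.19 for GFAP. Within males FE differences lay between -0.0075 and 0.69 for UCHL1 and -1.07 and 0.24 for SOX10, and within females between -0.28 and 0.22 for GFAP. The causes of these changes were not tested. Of the list medians, 8 moved and 280 did not. Beside the 3 values of the glia list for FE, the GDNF list moved to -0.21 for FE and 0.0017 for sex with the 50th percentile filter, the glia list to 0.18 for sex with the run as a term, and the transmitter list for sex to 0.0121 without low FE replicate 1 and 0.0166 without the 3 arrays. S100B differed by -0.19 for FE and 0.0606 for sex without the 3 arrays. Signal over background limits all 6 genes. No paired analysis was possible because replicate numbers were given in order within a group and pair no pigs.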

Other observations

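The genes whose values over the 12 pigs were most like those of a measured gene were looked up among 12220 symbols, for the 5 genes above the background median. This rule was chosen after seeing that none of the 6 passed the 95th percentile, and these correlations are descriptions of 12 arrays that share their background. SOX10 was most like DPYSL3, a cytoskeletal protein of growing axons and also of muscle (r = 0.94), KLHL21 (r = 0.93) and NTN3 (r = 0.91). GFAP was most like DSP, a desmosome protein of epithelium (r = 0.92), CCDC6 (r = 0.91) and DFNA5 (r = 0.90), and DSP and CCDC6 lay above the 95th percentile of background on 12 and 10 arrays. RET was most like KCNK10 (r = 0.92), FLOT2 (r = 0.85) and MIR342 (r = 0.85). UCHL1 was most like SPSB4 (r = 0.85), GPATCH4 (r = 0.83) and KBTBD7 (r = 0.81). S100B was most like TCF23 (r = 0.86), POU3F3 (r = 0.85) and RNF126 (r = 0.84).

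The interstitial cells of Cajal, the pacemakers between enteric nerves and muscle, had 3 genes tested, all 3 higher in mean in high FE, and the median of their differences was 0.13. Leaving out 1 pig put this median between -0.01 (without high FE replicate 5) and 0.27 (without high FE replicate 6). KIT, their receptor tyrosine kinase, averaged 7.86 ± 0.56 in high FE pigs, against 7.69 ± 0.73 in low FE pigs (SD, n = 6 each), a difference of 0.17 ± 0.33 (SE, adjusted p 0.901 in limma), and lay above the 95th percentile of background on 9 arrays. Mast cells also make KIT, and their part in this value was not tested.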
